A study of Mus musculus with 12 samples.

Results

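Scavenger receptors are a loose group of surface and lysosomal proteins that bind modified lipoproteins, dying cells, matrix fragments and other polyanionic cargo. The 10 genes described here were picked by name, with earlier results of these data known, out of the 28689 genes of the deposited table. The gene lists set beside these 10 were chosen in the same way, so shares within them are descriptions. The 10 genes come from classes A, B, E, F and H and are not all the receptors of those classes, of which Scarf2, Scara3 and Scara5 are described with the other scavenger receptors. They are the class H stabilins Stab1 and Stab2, the class B genes Cd36, Scarb1 and Scarb2, the class A genes Msr1, Marco and Colec12, the class E gene Olr1 and the class F gene Scarf1. Each was compared between mouse lung endothelial cells (MLECs) of knockout (dKO) and control (CTR) mice.

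The dKO mice were VE-CAD-CreERT2+/Sp1 fl/fl/Sp3 fl/fl and the CTR mice were Cre-negative littermates carrying the same floxed alleles, although the sample labels give the control genotype as WT. Both groups received tamoxifen, and the animals were adult males. The Cre is driven by the VE-Cadherin promoter. By design, endothelial cells delete the transcription factors Sp1 and Sp3 while other cells of the lung retain them. MLECs were selected with beads against CD31, grown to confluence and selected again with beads against intercellular adhesion molecule 2. RNA was sequenced in 12 libraries, 6 of each group, and the number of mice behind a library is not given, so p-values measure the spread between libraries, part of which may be technical.

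Values are FPKM as the authors deposited them, which relate the fragments of a gene to its length and to the fragments of the library. They are scaled by gene length, so levels may be compared between genes. Libraries held between 15523054 and 17938286 fragments on genes. Changes are differences of mean log2(FPKM + 1) between dKO and CTR, which understate the change of low genes, and were tested with limma in the 12467 genes that reached an FPKM of 1 in 6 or more libraries. Of these genes, 2549 (20.4%) were higher and 4065 (32.6%) lower in dKO at an adjusted p under 0.05. The change of the median tested gene was −0.10. Under median-of-ratios scaling the split was 3213 higher and 3012 lower. Sp1 fell from a CTR range of 19.4 to 23.7 FPKM to 8.42 to 12.1 FPKM in dKO (log2 fold change −0.95, adjusted p = 5.68e-06). Sp3 lay between 24.2 and 31.1 FPKM in CTR and between 22.5 and 26.9 FPKM in dKO (adjusted p = 0.0902). A loss of Sp3 RNA was therefore not called in these libraries. FPKM of a whole gene cannot show whether a floxed part of it was removed. By immunofluorescence, the paper reported less Sp1 and Sp3 protein in the aortic endothelium of dKO mice. Columns of the dKO libraries are named after tamoxifen, which both groups received, and were assigned to dKO because the other columns carry the name of the controls.

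Several of these receptors are known from endothelium or from phagocytes. Class A receptors are best known from macrophages, with Marco a marker of alveolar macrophages. Cd36 takes up fatty acids in capillary endothelium, and the stabilins clear hyaluronan and modified proteins in sinusoidal endothelium. Scarb1 binds high-density lipoprotein, and Scarb2 sits in the lysosomal membrane and carries glucocerebrosidase there. Sp1 and Sp3 bind GC boxes, short GC-rich elements common near gene starts, whereas the PU box is the element of PU.1, a factor of myeloid cells.

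Sequence near the annotated start was described for 9 of the members. The 250 bases before the Ensembl canonical start are given for Stab1, which rose in all dKO libraries, for Marco, the one that fell, and for one that did not pass the test and holds several GC boxes. All were read from GRCm39, the build of the files, on the strand of the gene, 5′ to 3′, with GC boxes (GGGCGG or its complement CCGCCC) and PU boxes (GAGGAA or its complement TTCCTC) in capitals. They lie at chr14:30890599-30890848 (minus strand) for Stab1, chr1:120432754-120433003 (minus strand) for Marco and chr5:125418177-125418426 (minus strand) for Scarb1.
Stab1: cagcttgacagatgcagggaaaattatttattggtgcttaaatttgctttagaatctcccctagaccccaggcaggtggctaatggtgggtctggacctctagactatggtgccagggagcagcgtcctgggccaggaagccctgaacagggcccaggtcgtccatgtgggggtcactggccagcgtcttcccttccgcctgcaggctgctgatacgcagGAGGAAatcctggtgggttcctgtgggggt
Marco: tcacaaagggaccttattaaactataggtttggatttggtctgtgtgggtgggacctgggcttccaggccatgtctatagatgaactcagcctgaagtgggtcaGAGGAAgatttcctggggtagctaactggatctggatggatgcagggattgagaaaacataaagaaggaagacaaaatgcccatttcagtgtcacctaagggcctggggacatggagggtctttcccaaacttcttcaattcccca
Scarb1: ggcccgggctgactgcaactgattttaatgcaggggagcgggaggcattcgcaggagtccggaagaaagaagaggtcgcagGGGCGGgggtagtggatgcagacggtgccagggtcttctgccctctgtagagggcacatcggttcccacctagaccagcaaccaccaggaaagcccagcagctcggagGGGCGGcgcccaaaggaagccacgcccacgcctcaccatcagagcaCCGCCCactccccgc

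In the 300 bases from 250 before to 50 after the start, a GC box was present in 4 of these 9 members, against 56.3% of the 12375 promoters of tested genes. Scarb1 held 4 boxes, the last of them after the start and so not in the sequence above, Colec12 held 3, and Scarb2 and Scarf1 held 1 each. No GC box was found in this window of Stab1, Stab2, Cd36, Marco or Olr1. The start used for Cd36, at 18054896, lies inside the annotated gene, which reaches 18094067 on the minus strand. Starts further upstream were not examined. The PU box, found in 27.1% of promoters, was present in Stab1 (30 bases before the start), Marco (146 bases before) and Olr1 (76 bases before), and 2 copies followed the start of Scarf1. The TATA box (TATAAA or its complement), found in 8.65% of promoters, was in none of the 9, and no box overlapped another. The windows of Cd36 (43.3%), Olr1 (46.0%) and Marco (47.3%) were poor in G and C, while those of Scarb1 (66.7%), Scarb2 (69.0%) and Colec12 (70.3%) were rich, against a median of 57.7% over the tested promoters. These matches are descriptions of letters and carry no measurement of binding.

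**Figure D1:**
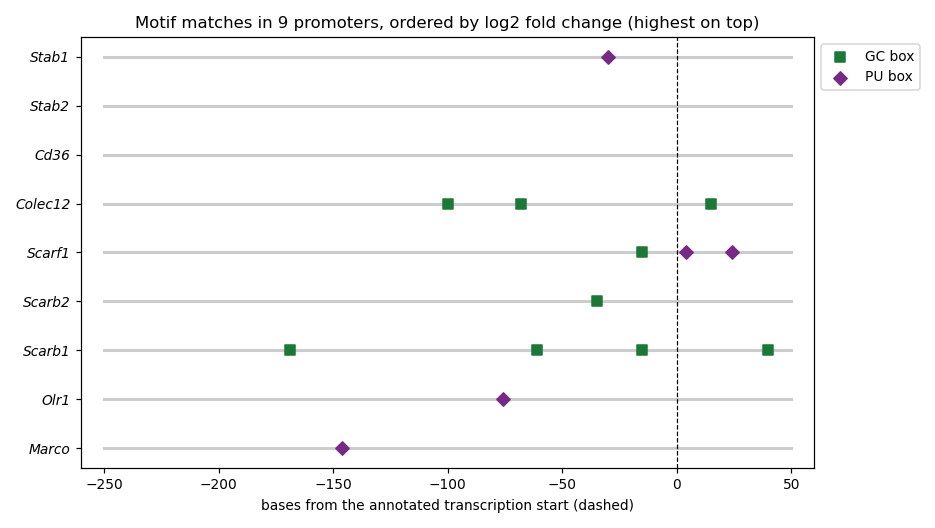
Matches to the GC box (squares) and the PU box (diamonds) in the promoters of 9 members, by bases from the annotated start (dashed line), with genes ordered by log2 fold change and the highest on top. The lines of Stab2 and Cd36 are empty, and Scarb1 and Colec12 hold 4 and 3 GC boxes.

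Of the 10 members, 9 passed the filter on low values, and Stab2 did not. At an adjusted p under 0.05, 4 of the 9 were higher in dKO (Stab1, Msr1, Cd36 and Scarf1) where 20.4% of the tested genes were, 1 was lower (Marco) where 32.6% were, and 4 did not pass (Scarb1, Scarb2, Colec12 and Olr1). With a log2 fold change over 1.5 as well, 2 members were higher (Msr1 and Stab1) and 1 was lower (Marco), where 1.43% of the tested genes were higher and 0.553% lower. All dKO libraries lay above all CTR libraries in 2 of the 9, Stab1 and Msr1, as in 11.3% of the tested genes. In none of the 9 did all dKO libraries lie below all CTR libraries, as they did in 16.1% of the tested genes. Over these 9, the log2 fold change had a median of 0.42.

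**Figure D2:**
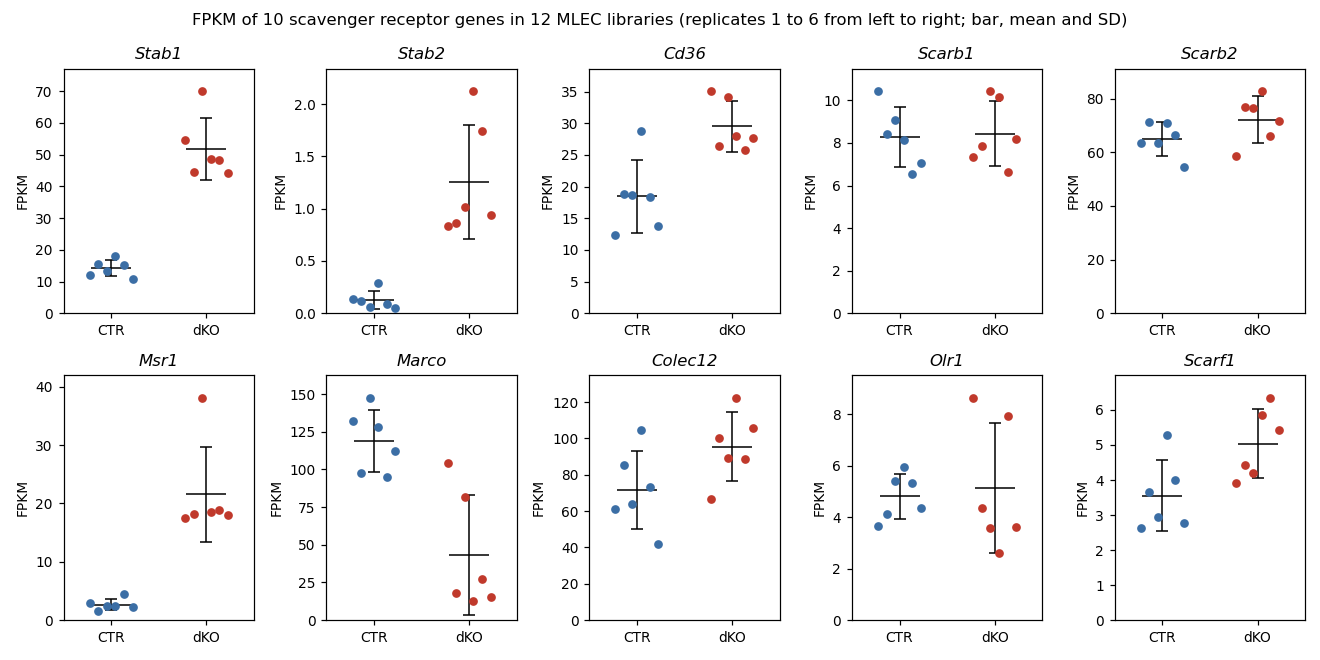
FPKM of the 10 members in the 6 CTR (blue) and 6 dKO (red) libraries, one panel per gene with axes from 0, with replicates 1 to 6 from left to right and bars for the mean and SD. The groups do not overlap in Stab1, Stab2 and Msr1, and the dKO libraries of Marco spread from 12.4 to 104 FPKM.

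Both stabilins were higher in dKO in every library. Stab1 (ENSMUSG00000042286, chromosome 14 from 30860970 to 30890598, minus strand) encodes a large endocytic receptor of sinusoidal endothelium and alternatively activated macrophages. Its CTR libraries ran from 10.9 FPKM through a median of 14.3 to 18.1, and its dKO libraries from 44.2 through 48.5 to 70.1. The lowest dKO library therefore stood well above the highest CTR library, and dKO replicate 3 was the highest of all. Mean Stab1 rose from 14.2 ± 2.59 FPKM (± SD, n = 6 libraries in each group, here and for the other members) to 51.7 ± 9.78 FPKM, a log2 fold change of 1.79 (95% confidence interval 1.51 to 2.08, adjusted p = 8.18e-07). It stayed called in all 26 other settings, between 1.70 and 1.88.

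Stab2 (ENSMUSG00000035459, chromosome 10 from 86675054 to 86843889, minus strand) encodes the hyaluronan receptor of liver, spleen and lymph node sinusoids. Its FPKM was between 0.0537 and 0.288 in CTR, with a median of 0.101, and between 0.831 and 2.13 in dKO, with a median of 0.978. These values rest on 8 to 44 fragments in a CTR library and 113 to 334 in a dKO library, and the groups did not overlap. A two-sided exact permutation test over all divisions of the libraries gave p = 0.00216, the smallest that 6 against 6 can give and not adjusted. The mean was 0.124 ± 0.0863 FPKM in CTR and 1.25 ± 0.544 FPKM in dKO, 10.1-fold higher, although the difference on the log2(FPKM + 1) scale was 0.98. In absolute terms Stab2 remained the lowest of the 10 members in both groups.

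Among the class B receptors, only Cd36 passed the test. Cd36 (ENSMUSG00000002944, chromosome 5 from 17986432 to 18094067, minus strand), the fatty acid translocase and a receptor for thrombospondin and oxidised lipoproteins, had a lowest, median and highest CTR value of 12.3, 18.5 and 28.8 FPKM. The corresponding dKO values were 25.7, 27.8 and 35.1 FPKM. The groups overlapped through CTR replicate 4, which was higher than 4 of the 6 dKO libraries. Cd36 rose from 18.5 ± 5.77 to 29.5 ± 4.06 FPKM, a log2 fold change of 0.69 (95% confidence interval 0.33 to 1.04, adjusted p = 0.00373).

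Scarb1 (ENSMUSG00000037936, chromosome 5 from 125353547 to 125418176, minus strand) had CTR values of 6.52 to 10.4 FPKM and dKO values of 6.62 to 10.4 FPKM, with medians of 8.28 and 8.03. The ranges coincided almost entirely. Its log2 fold change was 0.02 (95% confidence interval −0.24 to 0.29, adjusted p = 0.879), and −0.02 after rescaling to TPM, in which the values of each library have the same sum. Scarb2 (ENSMUSG00000029426, chromosome 5 from 92589169 to 92654692, minus strand) had CTR values of 54.3 to 71.4 FPKM with a median of 64.9, and dKO values of 58.6 to 82.9 FPKM with a median of 74.1. Although 4 of the 6 dKO libraries exceeded every CTR library, its log2 fold change of 0.14 did not pass (95% confidence interval −0.05 to 0.34, adjusted p = 0.197).

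The class A receptors Msr1 and Marco changed in opposite directions. Msr1 (ENSMUSG00000025044, chromosome 8 from 40034726 to 40095714, minus strand), the macrophage receptor for acetylated low-density lipoprotein, had 1.55 FPKM in the lowest, 2.43 in the median and 4.53 in the highest CTR library. The dKO libraries had 17.5, 18.4 and 38.1 FPKM in the same order. All dKO libraries exceeded all CTR libraries, and 5 of them lay close together between 17.5 and 19.0 FPKM, with dKO replicate 3 apart at 38.1. Msr1 rose from 2.67 ± 1.01 to 21.6 ± 8.13 FPKM, the largest log2 fold change among the tested members at 2.60 (95% confidence interval 2.16 to 3.04, adjusted p = 1.43e-06). Without dKO replicate 3 it was 2.43.

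Marco (ENSMUSG00000026390, chromosome 1 from 120402267 to 120432753, minus strand), which binds bacteria and inhaled particles on alveolar macrophages, had the highest mean of the members in CTR. Its CTR libraries had 95.1 FPKM at the lowest, 120 at the median and 148 at the highest, and its dKO libraries 12.4, 22.5 and 104. The dKO libraries were widely spread. Replicates 2, 4, 5 and 6 had between 12.4 and 27.2 FPKM, replicate 3 had 81.7 FPKM, and replicate 1, at 104 FPKM, lay inside the CTR range. Marco fell from 119 ± 20.8 to 43.1 ± 39.6 FPKM, a log2 fold change of −1.91 (95% confidence interval −2.91 to −0.91, adjusted p = 0.00404). The change was −2.25 without dKO replicate 1 and stayed past the threshold in every setting tried. The ratio of Marco to Msr1 within a library, a quantity chosen after the values were seen and therefore not tested, was between 21.0 and 63.1 in CTR and between 0.667 and 5.97 in dKO.

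Colec12 (ENSMUSG00000036103, chromosome 18 from 9707593 to 9882644, plus strand), a collectin with a scavenger receptor stalk that is expressed in vascular cells, had CTR values of 41.7, 68.6 and 105 FPKM as the lowest, median and highest. Its dKO values were 66.8, 94.8 and 122 FPKM. The groups overlapped, and 2 dKO libraries exceeded all CTR libraries. The log2 fold change was 0.44 (95% confidence interval 0.02 to 0.87) and did not pass after adjustment (adjusted p = 0.0722). It did pass without CTR replicate 4 (0.56, adjusted p = 0.0190), without dKO replicate 1 (0.54, adjusted p = 0.0315), under median-of-ratios scaling (0.54, adjusted p = 0.0392) and with the replicate number as a block (0.44, adjusted p = 0.0334).

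Of the remaining members, Scarf1 passed narrowly and Olr1 did not. Scarf1 (ENSMUSG00000038188, chromosome 11 from 75404322 to 75418875, plus strand), an endothelial receptor for acetylated low-density lipoprotein and apoptotic cells, had 2.64, 3.30 and 5.29 FPKM as the lowest, median and highest CTR value and 3.93, 4.93 and 6.35 FPKM in dKO. CTR replicate 4 lay above 3 of the 6 dKO libraries, so the groups overlapped. Its log2 fold change was 0.42 (95% confidence interval 0.11 to 0.73, adjusted p = 0.0269). The call was lost without CTR replicates 1, 3 or 6 or without dKO replicates 4, 5 or 6, each left out in turn (adjusted p up to 0.0598), and also without the filter on low values (adjusted p = 0.0572).

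Olr1 (ENSMUSG00000030162, chromosome 6 from 129462207 to 129484128, minus strand), the lectin-like receptor for oxidised low-density lipoprotein known as LOX-1, had CTR values of 3.65 to 5.96 FPKM with a median of 4.84 and dKO values of 2.62 to 8.64 FPKM with a median of 3.98. In dKO, 2 libraries lay above and 3 below all CTR libraries, so the spread widened from a coefficient of variation of 18.5% to 49.2%. The log2 fold change was −0.01 (95% confidence interval −0.49 to 0.48, adjusted p = 0.985), and it was 0.07 under median-of-ratios scaling.

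**Figure D3:**
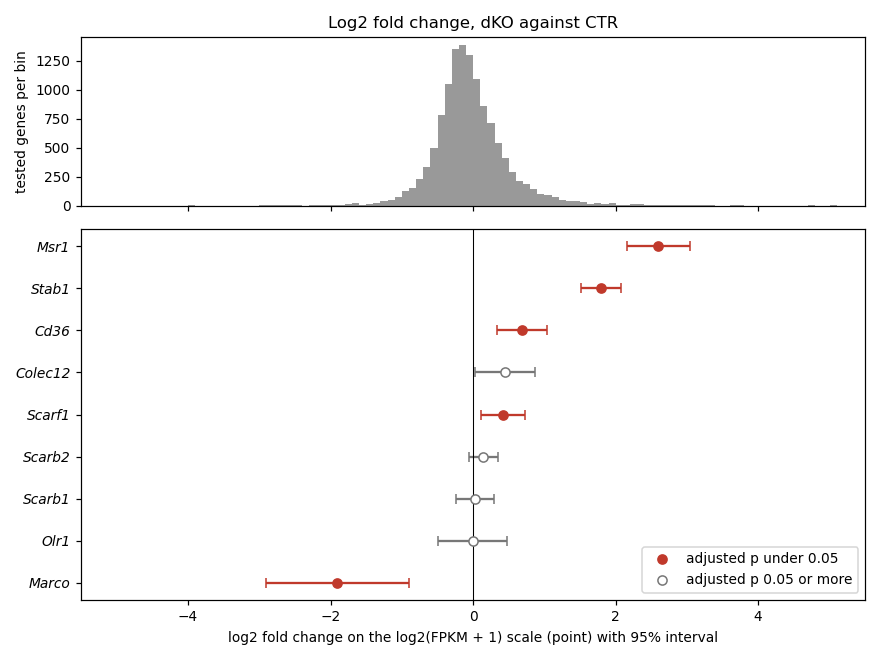
Log2 fold changes of the 9 tested members (points) with 95% confidence intervals (bars), filled where the adjusted p was under 0.05, below a histogram of the same quantity over the 12467 tested genes. Msr1 (2.60) and Stab1 (1.79) stand to the right, Marco (−1.91) to the left, and the intervals of Scarb2, Scarb1 and Olr1 cross 0.

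The order of levels also shifted. In CTR it ran, by mean FPKM, Marco, Colec12, Scarb2, Cd36, Stab1, Scarb1, Olr1, Scarf1, Msr1 and Stab2. Neighbours in that order had ranges that did not overlap at 4 steps, from Scarb2 to Cd36, from Stab1 to Scarb1, from Scarb1 to Olr1 and from Msr1 to Stab2. In dKO the order was Colec12, Scarb2, Stab1, Marco, Cd36, Msr1, Scarb1, Olr1, Scarf1 and Stab2, with ranges apart only between Msr1 and Scarb1 and between Scarf1 and Stab2. The ranges of all other neighbours overlapped. Within single libraries, some of these still kept their order in 6 of 6, namely Marco over Colec12, Cd36 over Stab1 and Olr1 over Scarf1 in CTR and Colec12 over Scarb2 and Scarb2 over Stab1 in dKO.

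Within CTR, a single library was the highest for several members, while no dKO library was the highest for more than 3. CTR replicate 4 was the highest CTR library for 6 of the 10 members (Stab1, Stab2, Cd36, Colec12, Olr1 and Scarf1). Among the CTR libraries it also had the highest sums of the markers of endothelium (345 FPKM, against 212 in the lowest), macrophages (1207 against 666), alveolar macrophages (1661 against 949), lymphatic and sinusoidal endothelium (226 against 146) and lung epithelium (528 against 118). Their part in the levels of these members was not tested. The share of all genes for which CTR replicate 4 was the highest CTR library was not counted. After subtracting the group means, the log2 values of the 9 tested members gave 36 pairs with Pearson r between −0.68 and 0.89 over the 12 libraries, which share depth and cell makeup. The pairs over 0.7 were Scarb2 with Colec12 (0.89), Stab1 with Cd36 (0.82) and Colec12 with Scarf1 (0.76).

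Over the same deviations, the 3 tested genes most like each member were sought, as a description without a test. For Msr1 they were Fcgr2b, Ms4a4a and Ms4a6c (r = 0.92, 0.92 and 0.91). The correlations of ranks (Spearman) with these genes were lower, 0.73, 0.77 and 0.69, and dKO replicate 3 stood apart for Msr1. Stab1 had Trim12a, Parp12 and Znfx1 (0.96, 0.95 and 0.94), Marco had Abhd10, Irgm1 and Iqcb1 (0.95, 0.94 and 0.94) and Scarf1 had S1pr1, Trib1 and Gpr182 (0.96, 0.96 and 0.95). The values for Colec12 were the highest, with Atp1b2, 6330403K07Rik and Cbx6 (0.99, 0.99 and 0.98). Nearest to Scarb2 were Emp1, Fkbp5 and Pcca (0.98, 0.97 and 0.97), and nearest to Cd36 were Ppfibp2, Nek4 and Trim29 (0.94, 0.93 and 0.92). Scarb1 had Blvra, Mcmbp and Rmi1 (0.94, 0.91 and 0.86), and Olr1 had Slc39a8, Ampd3 and Zbtb46 (0.91, 0.88 and 0.88). Apart from Msr1, the lowest Spearman values were 0.78, for Marco with Irgm1 and for Olr1 with Ampd3.

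Other scavenger receptors, from further classes and from classes A and F, were described by a list of 20 genes, of which 18 were in the table and 13 were tested. One of these, Vsig4, passed the filter only through its dKO libraries and so had to differ. Of the other 12, 6 were higher (against 20.4% of all tested genes), 1 was lower (against 32.6%) and 5 did not pass, with a median log2 fold change of 0.67 against −0.10 over all tested genes. Cd68, a lysosomal glycoprotein of macrophages, rose from 85.2 to 340 FPKM (1.96) with all dKO libraries above all CTR libraries. The same separation was found in the hyaluronan receptor Cd44 (28.7 to 62.5 FPKM), the beta-glucan receptor Clec7a (8.97 to 26.8 FPKM, 1.44), the haemoglobin receptor Cd163 (2.35 to 6.59 FPKM, 1.18) and Cxcl16 (2.71 to 6.84 FPKM, 1.02), a chemokine that also binds oxidised lipoproteins. Among all tested genes, 11.3% were separated in this direction. Mrc1, the mannose receptor, rose from 40.9 to 96.5 FPKM (1.12) with 5 of 6 dKO libraries above all CTR libraries. Vsig4, a complement receptor of tissue macrophages, had 0.334 FPKM in CTR and 2.54 FPKM in dKO. Scarf2, the paralogue of Scarf1, fell from 28.9 to 16.1 FPKM (−0.83), with 5 of 6 dKO libraries below all CTR libraries. The large lipoprotein receptor Lrp1 (198 and 234 FPKM), Ager, Ssc5d, Cd5l and Scara3 did not pass.

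**Figure D4:**
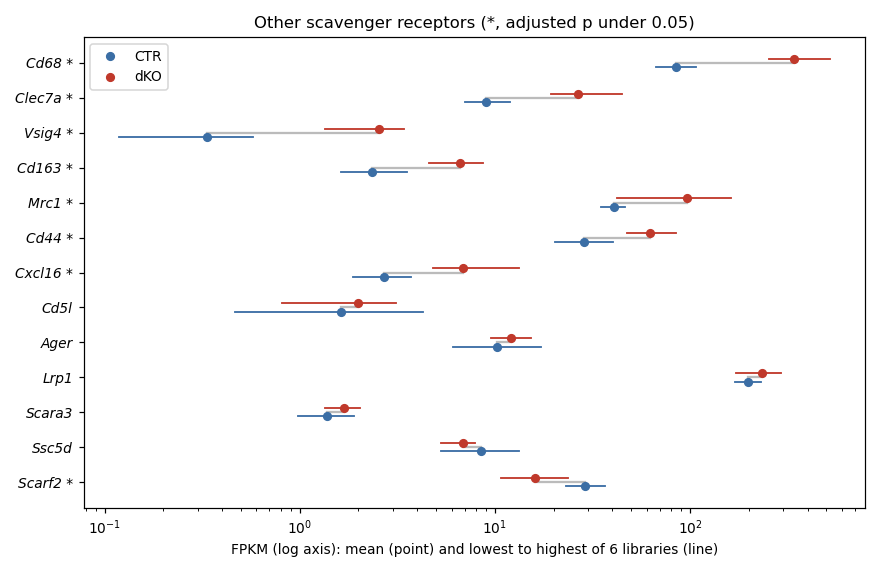
FPKM of 13 other scavenger receptors on a log axis, with the mean (point) and the lowest to highest library (line) of CTR (blue) and dKO (red), and an asterisk where the adjusted p was under 0.05. The lines of the groups are apart for Cd68, Clec7a, Vsig4, Cd163, Cd44 and Cxcl16, which lie to the right in dKO. Vsig4 passed the filter only through its dKO libraries.

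The genes that work with these receptors were described by list, with the same shares of all tested genes, 20.4% higher and 32.6% lower, as background. Among 14 tested lipid partners of Cd36 and Scarb1, 8 were higher and 2, Vldlr and Fyn, were lower (median 0.48). Apoe, the apolipoprotein that many of these receptors bind, rose from 292 to 1029 FPKM, the caveolar protein Cav1 from 72.3 to 122 FPKM, and the fatty acid binding proteins Fabp5 from 37.4 to 54.5 FPKM and Fabp4 from 15.6 to 31.0 FPKM. Of 9 lysosomal partners of Scarb2, 8 were higher and none was lower (median 0.78), among them prosaposin Psap (958 to 2363 FPKM), cathepsin D Ctsd (255 to 720 FPKM), Lamp1 (224 to 437 FPKM) and Cd63 (175 to 240 FPKM). Of 13 ligands, 6 were higher and 1, Thbs2, was lower (median 0.43). Thbs2 was scarce, at 4.28 FPKM in CTR and 3.14 in dKO, whereas the other listed thrombospondin, Thbs1, rose from 118 to 305 FPKM. Sparc, bound by Stab1, had 1233 FPKM in CTR and 1287 in dKO and vimentin Vim had 444 and 477, neither past the test, whereas calreticulin Calr (201 to 490 FPKM) and annexin A5 Anxa5 (201 to 311 FPKM) rose. In a list of binding and sorting partners of the stabilins and Scarf1, 2 of 10 were higher, the integrin Itgav and the hyaluronidase Hyal2, and 1 was lower (median 0.04), shares no larger than those of all tested genes. Its most abundant genes were Itgb5 and Snx17, which did not pass, Nexn, which fell from 28.4 to 16.0 FPKM, and Gga1, which did not pass. Of 11 other tested receptors and bridging proteins for apoptotic cells, Cd300lb passed the filter only through its dKO libraries, and of the other 10, 8 were higher and none was lower (median 0.86), with Gas6 rising from 28.9 to 104 FPKM, Pros1 from 94.9 to 123 FPKM and Mfge8 from 74.0 to 104 FPKM, and Axl not past the test at 111 and 131 FPKM.

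Markers of some cell types moved with the groups. Counts in each marker list stand against 20.4% higher and 32.6% lower among all tested genes. In bulk RNA, a change in the number of cells of one type and a change in RNA per cell cannot be told apart. Endothelial markers were present in all libraries, 11 of 12 were higher in dKO and none was lower, and their summed level was 212 to 345 FPKM in CTR and 389 to 525 FPKM in dKO. Cdh5, Cldn5, Pecam1 and Tie1 led that list, with Cdh5 at 88.9 FPKM in CTR and 140 in dKO and Pecam1 at 33.4 and 60.2. Fibroblast collagens were more abundant still, with Col1a1 at 1173 FPKM in CTR and 572 in dKO, so these genes of another cell type exceeded every endothelial marker in both groups of libraries labelled as endothelial. Of 8 tested fibroblast markers, 1, Dcn, was higher and 5 were lower, and the sum was 2166 to 2746 FPKM in CTR and 844 to 1690 FPKM in dKO.

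Beside the rises of Msr1, Stab1, Cd68 and Cd163, 9 of 9 tested macrophage markers were higher in dKO (median 1.68). Of the other 3 of the 12 listed, Fcgr1 passed the filter only through its dKO libraries, and Aif1 and Cx3cr1 were below it. The summed level of all 12 was 666 to 1207 FPKM in CTR and 2187 to 4978 FPKM in dKO. The lysozyme gene Lyz2 had 746 FPKM in CTR and 1868 in dKO, and the complement genes C1qa, C1qb and C1qc had 30.3, 30.0 and 16.4 FPKM in CTR and 398, 321 and 214 in dKO. The highest sum was in dKO replicate 3, the library that was also highest for Msr1 and Stab1. The part of macrophage RNA in these changes was not tested.

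Markers of alveolar macrophages, beside the fall of Marco, did not move as a block. Of 9 listed, 5 were tested, 2 were higher (Atp6v0d2 from 45.2 to 80.8 FPKM and Itgax from 7.07 to 12.5), 1 was lower (Plet1 from 8.06 to 3.77 FPKM) and the most abundant, Chil3, had 1107 FPKM in CTR and 1061 in dKO (adjusted p = 0.660). The sum was 949 to 1661 FPKM in CTR and 511 to 1801 FPKM in dKO. Below the filter, Siglecf, the defining lectin of these cells, had 0.795 FPKM in CTR and 0.348 in dKO. Cidec had 0.369 and 0.0543, and Krt79 had 0.126 and 0.00964. Exact permutation tests, not adjusted, gave p = 0.0173 for Siglecf, 0.00216 for Cidec and 0.00433 for Krt79. These values rest on few fragments, 227, 70 and 27 over the CTR libraries. Fabp1 had 2 fragments in CTR and 1 in dKO. Most of the sum was Chil3, and its mean was 1185 FPKM in CTR and 1178 FPKM in dKO. In dKO replicates 1 and 3, where Marco was highest, the sum was 1322 and 1801 FPKM. In the other dKO libraries it was between 511 and 1276 FPKM. The 1276 FPKM belonged to dKO replicate 4, where Marco was lowest at 12.4 FPKM. The part of alveolar macrophage RNA in the fall of Marco was not tested.

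Lymphatic and sinusoidal endothelial markers, the cells for which the stabilins are known, had 5 of 8 tested genes higher and none lower in dKO (median 1.02). A further one, Mmrn1, had 14.6 FPKM in CTR, is listed at 0 in each dKO library and passed the filter only through its CTR libraries. Lyve1, the most abundant, had 104 FPKM in CTR and 119 in dKO and did not pass, nor did Pdpn and Gata4. The genes that rose were Mrc1, Flt4 (7.76 to 17.6 FPKM), Fcgr2b (3.15 to 13.9 FPKM), Reln (1.89 to 5.03 FPKM) and Prox1 (1.08 to 4.36 FPKM). Of these, Mrc1 is also counted with the other scavenger receptors, and Fcgr2b was the gene most like Msr1. The sums were 146 to 226 FPKM in CTR and 223 to 306 FPKM in dKO, and Clec4g, a marker of liver sinusoids, was at or near 0. The relation of these markers to the stabilins was not tested. Of the other lists, the mesothelial one had 5 of 6 genes higher (summed FPKM 28.8 to 38.6 in CTR and 66.3 to 146 in dKO), led by Upk1b (6.67 and 44.7 FPKM) and Msln (15.8 and 42.9 FPKM). Of 9 other leukocyte markers in the table, 2 were tested, S100a8 and Ptprc (1.25 and 2.67 FPKM), and both were higher. Among 9 pericyte and smooth muscle markers, led by Acta2 (773 and 518 FPKM, not past the test), Myh11 and Rgs5 were higher and Kcnj8 was lower. Rgs5 was low, at 0.750 FPKM in CTR and 3.01 in dKO. Among 7 tested lung epithelial markers, led by Sftpc (180 and 192 FPKM, not past the test), Krt8 and Epcam were higher. The shares higher in these 2 lists, 22.2% and 28.6%, were near the 20.4% of all tested genes. The shares lower, 11.1% and 0%, were under the 32.6% of all tested genes.

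**Figure D5:**
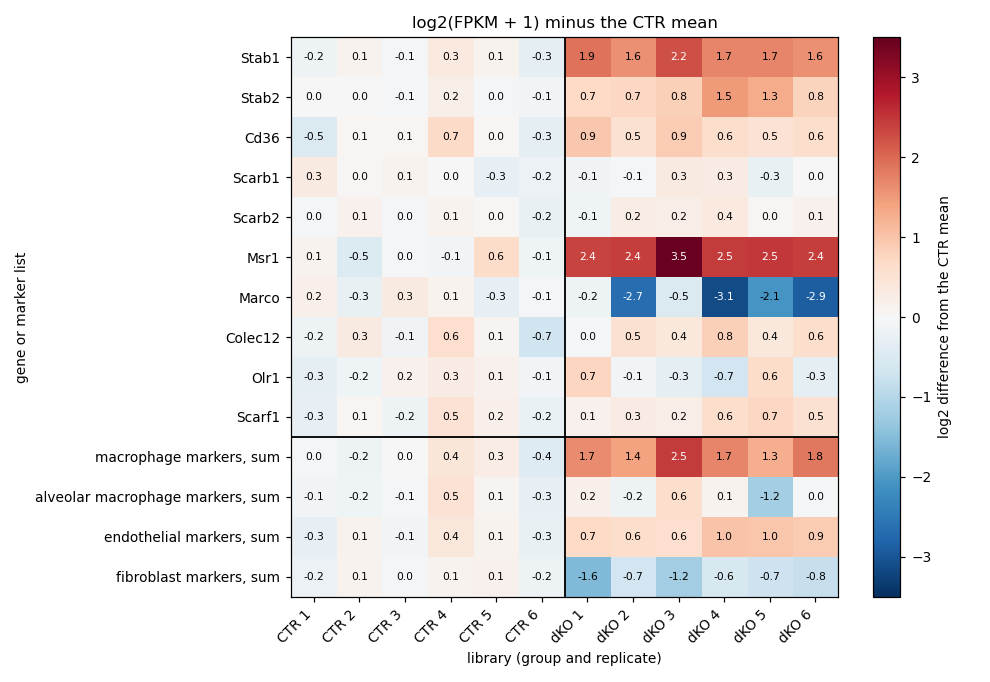
Difference of log2(FPKM + 1) from the CTR mean for the 10 members and for the summed FPKM of 4 marker lists (rows) in each library (columns, CTR on the left and dKO on the right), with red for higher and blue for lower. The macrophage sum and Msr1 are both highest in dKO replicate 3, and the difference for Marco is smaller in dKO replicates 1 and 3 than in the other dKO libraries.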

How the data were processed

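RNA of 6 CTR and 6 dKO MLEC libraries was analysed. Per the study, Trimmomatic was used for trimming and STAR for alignment to mm39, uniquely aligned reads were kept, and the authors deposited 1 table of FPKM values. The submitters' processing notes also name Bowtie2 2.2.3, HISAT2 2.1.0, TopHat2 and DESeq2. The counting program, annotation and use of strand are not given in the sources used here, so reads of overlapping genes may be mixed. The deposited FPKM were used without further scaling.

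Of 28689 genes, 27706 (96.57%) were matched by Ensembl identifier to GENCODE M39 on GRCm39. Whole fragment numbers were recovered from the FPKM for 100% of genes, with library totals of 15523054 to 17938286, and served for depth and alternatives only, since the gene lengths they imply equal the annotated exon length in 8593 genes and not in the others. Within groups, no library was a copy of another, since chi-square over its degrees of freedom did not fall below 11.3 in any of 30 pairs.

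log2(FPKM + 1) was tested with limma 3.58.1 (lmFit and eBayes with a trend, R 4.3.3) over the 12467 genes that reached FPKM 1 in 6 or more libraries, with Benjamini-Hochberg adjustment over all of them. Single genes were also tested with two-sided exact permutation tests over all divisions of the libraries, whose p is not adjusted. Genes named are the 10 members, Sp1 and Sp3, every called gene of the list of other scavenger receptors, up to 4 of the most abundant genes of each other list, and the 3 genes most like each tested member. Any other gene was named after its values were seen. The members and lists were chosen with earlier results of these data known.

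Promoter sequences, from 250 bases before to 50 after the Ensembl canonical start, were read from GRCm39 with Python 3.11.15. The promoter of 1 member, Msr1, is not reported here, and protein sequences were not used here. The steps were tested on simulated data. Alternatives were other pseudocounts (0.1 and 0.01) and filters, rescaling to TPM, median-of-ratios and quantile scaling, robust eBayes, limma-voom on recovered fragments, exact permutation for each gene, a replicate block and leaving out each library. limma-voom without a filter was chosen after seeing the data.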

Additional observations from a re-analysis of the deposited data

Results flagged for a closer look

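Among 40 groups of 6 libraries (the 10 members, and the genes named from the list of other scavenger receptors and targets), 3 held a library set apart from the rest by Dixon's test at the 95% level, where chance sets apart about 1 in 20, or 2 of the 40. For Msr1, dKO replicate 3 had 38.1 FPKM and the next dKO library 19.0 FPKM. For Stab2, CTR replicate 4 had 0.288 FPKM and the next CTR library 0.138 FPKM. For Cxcl16, dKO replicate 5 had 13.3 FPKM and the next dKO library 6.50 FPKM. Without dKO replicate 3, Msr1 kept its call.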

How the results depend on the processing

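Stab1, Cd36, Msr1 and Marco kept their direction and call in all 26 other settings. Stab2, below the filter, was higher in dKO in the 19 settings in which it was computed. Since its groups did not overlap, leaving out a library could change neither its direction nor its permutation p. The number of members called higher was 4 and varied from 3 to 5, and 1 member was lower throughout. Of all genes, 6614 were called, and 4222 when 5 FPKM was required in 6 or more libraries, which tests fewer genes. Leaving out 1 library gave 5858 to 6841. Scarb1 changed sign when rescaled to TPM (−0.021) and varied between −0.034 and 0.088 when 1 library was left out. Olr1 changed sign under median-of-ratios scaling (0.071) and quantile normalization (0.074) and varied between −0.16 and 0.13 when 1 library was left out. The call of Scarf1 was also lost with the exact permutation test for each gene (adjusted p = 0.0506). For Stab2 the size depends on the pseudocount, 0.98 with 1, 2.58 with 0.1 and 3.35 with 0.01 on the log2 scale. Sp3 passed when rescaled to TPM (−0.20, adjusted p = 0.0496). It also passed when CTR replicate 6 was left out (−0.18, adjusted p = 0.0326). Of the 9 promoters, 4 held a GC box and 3 had a share of G and C above the median of tested genes. For these sign changes and lost calls the cause was not tested.

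The same replicate number in both groups gave correlations of deviations from −0.108 to 0.565, and 4 of 12 libraries were closest to their own number, so the numbers were not taken as pairs. With the replicate block, 6955 genes were called, 5 members were higher and Colec12 passed (0.44, adjusted p = 0.0334).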
